A study of Mus musculus with 6 samples.

Results

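The genes described here make, sense and remove adenosine or consume NAD at the cell surface, and 1 encodes a surface peptidase grouped with them. They are Entpd1 (CD39), Nt5e (CD73), the adenosine receptor genes Adora2a and Adora2b, Ada (adenosine deaminase), Dpp4 (CD26) and Cd38. The 7 genes were fixed by name and matched by symbol, and all 7 are among the 15483 genes of the tables. The study compared bone marrow regulatory T cells (Tregs) of wild-type mice, sorted as CD3+CD4+NK1.1–Foxp3+. Control mice gave 3 libraries and mice irradiated 3 months earlier gave the other 3. The series title links these cells with premature ageing, and the labels give no dose of irradiation, age, sex or strain, and do not say whether a library holds 1 animal or a pool.

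Tregs restrain immune responses, and one of their routes is enzymatic. CD39 removes phosphates from extracellular ATP and ADP to give AMP, CD73 turns AMP into adenosine, and adenosine acts on receptors of neighbouring cells and of the Tregs themselves, where those encoded by Adora2a and Adora2b raise cyclic AMP. Adenosine deaminase ends the signal by turning adenosine into inosine, and CD26 is a surface peptidase of T cells that trims chemokines and other peptides. CD26 is known as a surface anchor of adenosine deaminase in humans, whereas mouse CD26 is reported not to bind it. CD38 consumes NAD at the cell surface and so limits the NAD that ADP-ribosyltransferases can use.

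Ada had the largest rise among these genes and Dpp4 the largest fall. The upstream sequences of these genes are therefore shown, a choice made after the values were seen. Each is the 250 bases before the RefSeq start of the gene on build GRCm38.p6, minus strand, written 5′ to 3′ in lower case, with matches to the searched motifs in capitals. The window of Ada is chr2:163750240-163750489 and that of Dpp4 is chr2:62412232-62412481.
Ada: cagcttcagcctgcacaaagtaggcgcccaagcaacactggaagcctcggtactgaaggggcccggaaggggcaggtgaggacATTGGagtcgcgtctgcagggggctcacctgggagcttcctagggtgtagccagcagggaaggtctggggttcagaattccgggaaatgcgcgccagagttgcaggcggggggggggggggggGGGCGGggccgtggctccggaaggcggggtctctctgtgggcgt
Dpp4: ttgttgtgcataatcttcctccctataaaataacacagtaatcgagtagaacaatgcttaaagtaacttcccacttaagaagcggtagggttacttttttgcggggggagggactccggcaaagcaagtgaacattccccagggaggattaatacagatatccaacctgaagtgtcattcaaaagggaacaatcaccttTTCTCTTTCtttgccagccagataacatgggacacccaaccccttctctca

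The motifs were searched on both strands and none of the matches overlap. The Ada window was 67.2% G or C and held 1 GC box (GGGCGG), found in 32.7% of 32851 RefSeq promoter windows of the same length, and 1 CCAAT box (CCAAT, here on the opposite strand), found in 33.8%. The Dpp4 window was 43.6% G or C and held neither. It held 1 match to the core of the interferon-stimulated response element (GAAANNGAA, here on the opposite strand), found in 7.13% of windows. The median window was 52.4% G or C. Neither window matched the cAMP response element (TGACGTCA) or the forkhead motif (TGTTTAC), found in 1.55% and 3.17%. A match describes letters only, and no binding was measured. The RefSeq promoter table matched 6 of the 7 genes. Adora2a was the missing entry.

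The values are FPKM (fragments scaled to the length of the transcript and to the fragments of the library), which allows levels of different genes to be set side by side. Library totals ran from 451444 to 485365 FPKM. The absolute depth is unknown, and the relative depth read from low values was 98.5% to 103% of control replicate 1 in the other control libraries and 81.6% to 92.7% in the irradiated ones. The mean Foxp3 level was 22.6 ± 1.93 FPKM (SD, n = 3) without and 12.6 ± 0.795 FPKM with irradiation, and 14 of 17 tested T cell core genes and 10 of 13 Treg genes were lower after irradiation. The neutrophil gene S100a8 stood at 25283 ± 1249 and 39026 ± 427 FPKM, so granulocyte transcripts were abundant in all 6 libraries of these sorted cells. In bulk samples, fewer cells of a type and less RNA per cell cannot be told apart.

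After irradiation, Ada and Cd38 rose, while Dpp4, Adora2a and Nt5e fell. Entpd1 and Adora2b did not pass the test. All 7 genes exceeded the minimum mean level of 1 FPKM. They were tested with limma on log2(FPKM + 1) among 10666 genes, and p-values were adjusted over all of these (Benjamini-Hochberg, threshold 0.05). The 5 calls among 7 genes stand beside a background of 16.6% of all tested genes called in either direction, 6.29% higher and 10.3% lower. In 6 of the 7 genes the groups did not overlap, with 3 higher and 3 lower after irradiation. Such separation was seen in 33.6% of all tested genes, 13.5% higher and 20.1% lower. The replicates are not stated to be separate animals, so the p-values measure the spread between these libraries, which may be technical.

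**Figure D1:**
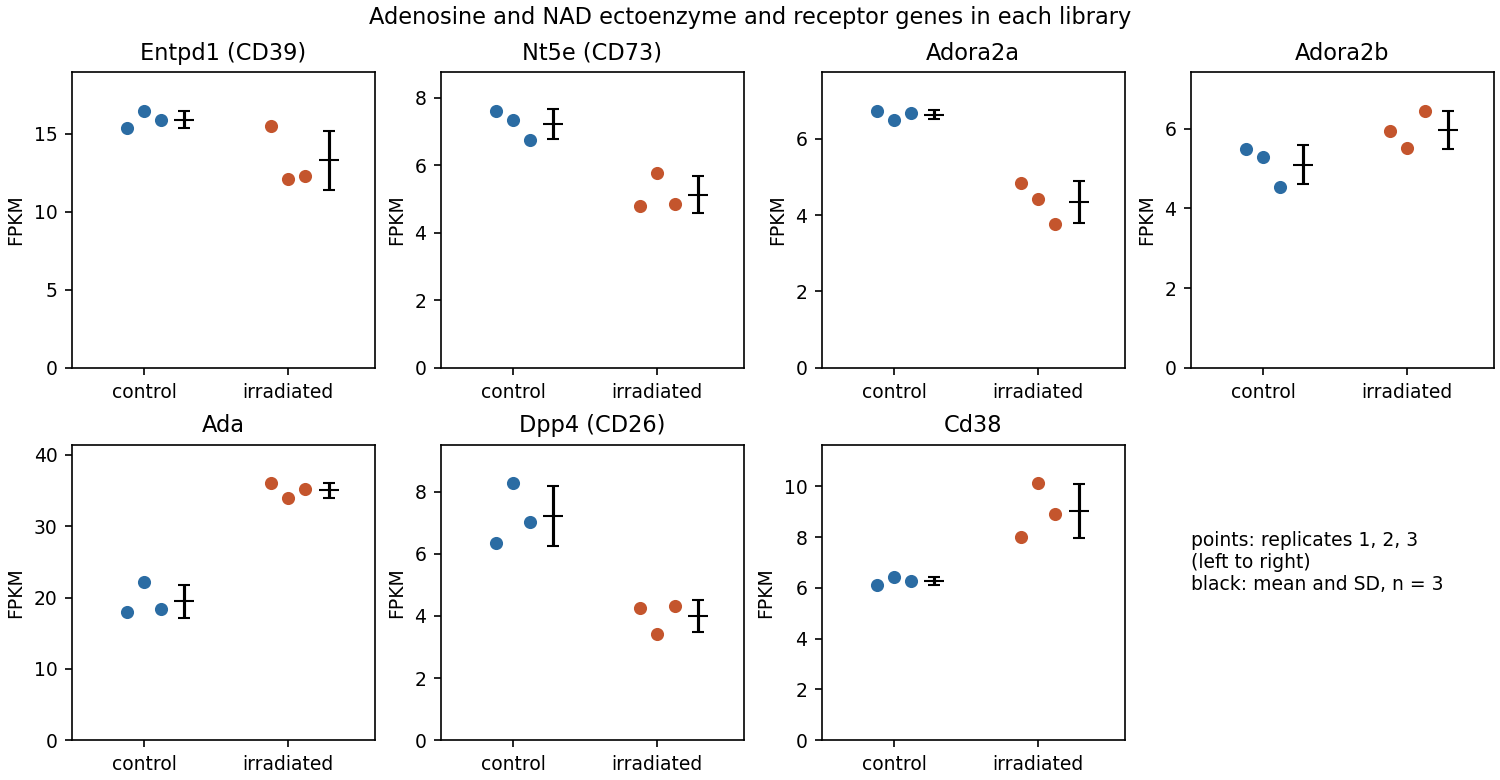
FPKM of each gene in each library (y axis, from 0), with control libraries in blue, irradiated libraries in orange, replicates 1, 2 and 3 from left to right, and the mean and SD (n = 3) in black. Ada and Cd38 sit higher in all 3 irradiated libraries, Nt5e, Adora2a and Dpp4 lower, and Entpd1 overlaps through irradiated replicate 1.

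The enzymes that make adenosine differed in how clearly they moved. Nt5e (chromosome 9, 88327197 to 88372092, GENCODE M21 on GRCm38), whose product makes the last step to adenosine, was at 7.61, 7.33 and 6.74 FPKM in control replicates 1, 2 and 3 and at 4.79, 5.76 and 4.84 FPKM in the irradiated ones. All 3 irradiated values were below all 3 control values. The mean fell from 7.23 ± 0.447 to 5.13 ± 0.545 FPKM (log2 change -0.43 ± 0.12 SE, limma adjusted p = 0.0315). Dropping control replicate 1 or 2 or irradiated replicate 1 or 3 ended the call, so it held in only 2 of the 6 fits with 1 library fewer, and the highest adjusted p was 0.114.

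Entpd1 (chromosome 19, 40612366 to 40741602), whose product starts the route from ATP, was at 15.3, 16.5 and 15.9 FPKM in control libraries and at 15.5, 12.1 and 12.3 FPKM in irradiated ones. Irradiated replicate 1 stood within the control values and the other two below them. The log2 change was -0.25 ± 0.10, with a 95% interval of -0.48 to -0.02 and an adjusted p of 0.136. Without irradiated replicate 1 it was -0.36 with an adjusted p of 0.0346. Entpd1 was the higher of the pair in every library. On the log2(FPKM + 1) scale Entpd1 minus Nt5e averaged 1.04 ± 0.105 (SD, n = 3) in the control group and 1.22 ± 0.279 after irradiation, with overlapping groups. Over Entpd1, on the same strand, GENCODE lists the processed pseudogenes Gm16027 and Gm8783 and a sense intronic gene.

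The 2 receptor genes that couple adenosine to cyclic AMP changed places. Adora2a (chromosome 10, 75316877 to 75334784), the high-affinity receptor of T cells, was at 6.73, 6.49 and 6.67 FPKM in control and at 4.85, 4.42 and 3.77 FPKM in irradiated libraries. The control values were close together and all 3 irradiated values lay well below them. The mean fell from 6.63 ± 0.124 to 4.35 ± 0.543 FPKM (log2 change -0.52 ± 0.12, adjusted p = 0.0141). The call was lost without control replicate 1, at an adjusted p of 0.0538.

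Adora2b (chromosome 11, 62248984 to 62266453), the low-affinity receptor, was at 5.48, 5.28 and 4.53 FPKM in control and at 5.94, 5.51 and 6.44 FPKM in irradiated libraries. The groups did not overlap, but irradiated replicate 2 lay only just above control replicate 1. The log2 change was 0.19 ± 0.12, with a 95% interval of -0.08 to 0.46 and an adjusted p of 0.329. Within each library, Adora2a minus Adora2b on the log2(FPKM + 1) scale was 0.25, 0.26 and 0.47 in the control libraries, and it was -0.25, -0.26 and -0.64 after irradiation. Adora2a was thus the higher of the pair in every control library and the lower in every irradiated library. The third adenosine receptor gene in the tables, Adora3, was low, at 1.57 ± 0.595 and 1.08 ± 0.481 FPKM, and did not pass (adjusted p = 0.402). Adora1 was not analysed here.

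Ada, which encodes the enzyme of adenosine removal, rose, and the peptidase gene Dpp4 fell. Ada (chromosome 2, 163726584 to 163750239) was at 17.96, 22.1 and 18.4 FPKM in control libraries and at 36.04, 33.96 and 35.2 FPKM in irradiated ones. The lowest irradiated value was far above the highest control value. The mean rose 1.80-fold, from 19.5 ± 2.29 to 35.1 ± 1.05 FPKM (log2 change 0.82 ± 0.09, limma adjusted p = 7.18e-05). Whichever library was dropped, Ada passed, and the highest adjusted p of these 6 fits was 0.000614. By its level Ada stood above 66.1% of tested genes in control and above 81.1% in irradiated libraries.

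Dpp4 (chromosome 2, 62330073 to 62412231) was at 6.34, 8.28 and 7.02 FPKM in control and at 4.26, 3.41 and 4.32 FPKM in irradiated libraries. No irradiated value reached the lowest control value. The mean of control libraries was 1.81 times that of irradiated ones, 7.21 ± 0.979 against 3.99 ± 0.508 FPKM (log2 change -0.72 ± 0.14, adjusted p = 0.00408). Dpp4 too passed whichever library was dropped, with adjusted p at most 0.0262. GENCODE lists the antisense gene Gm13561 over Dpp4. The library kit keeps the strand, per the labels, but whether the quantification used it is not given in the sources used here. Within each library Ada minus Dpp4 on the log2(FPKM + 1) scale was 1.37, 1.32 and 1.27 in the control libraries, against 2.82, 2.99 and 2.77 after irradiation. These values restate the largest rise and the largest fall among the 7 genes and are no separate result.

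**Figure D2:**
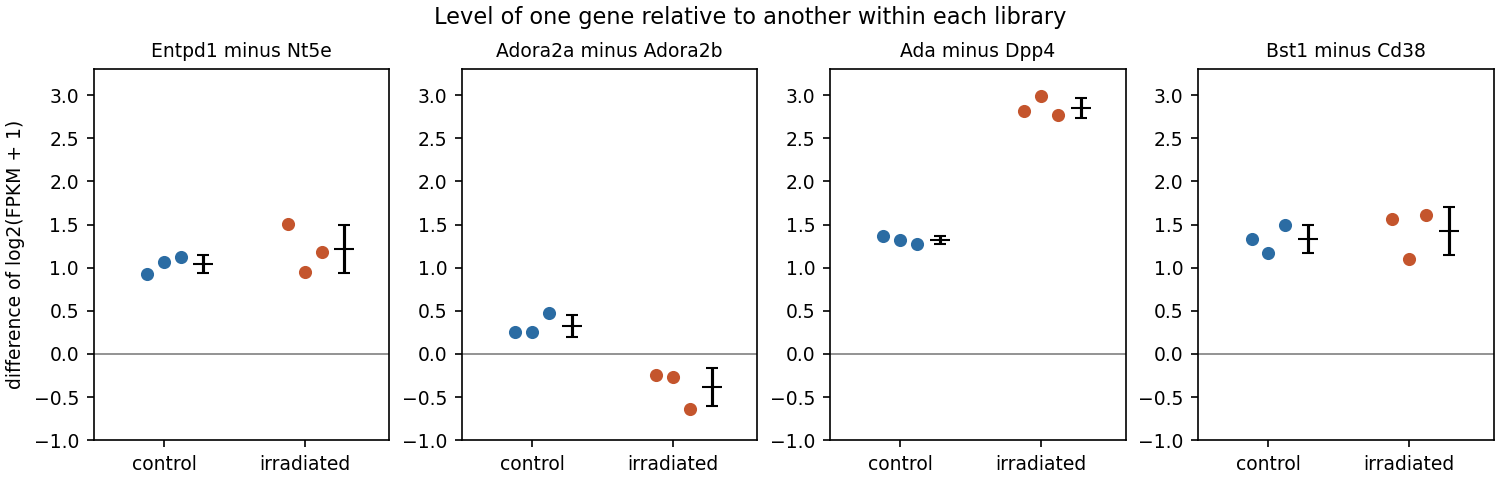
Difference of log2(FPKM + 1) between paired genes within each library (y axis), control in blue and irradiated in orange, with the mean and SD (n = 3) in black. Ada minus Dpp4 moves from a mean of 1.32 to 2.86 and Adora2a minus Adora2b crosses 0, while Entpd1 minus Nt5e and Bst1 minus Cd38 overlap between groups.

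Cd38 (chromosome 5, 43868553 to 43912375), the NAD-consuming ectoenzyme, was at 6.11, 6.42 and 6.27 FPKM in control and at 8.02, 10.1 and 8.896 FPKM in irradiated libraries. All 3 irradiated values were higher, and they were more spread than the control values. The mean rose 1.44-fold, from 6.27 ± 0.152 to 9.02 ± 1.06 FPKM (log2 change 0.46 ± 0.11, adjusted p = 0.0188). Dropping control replicate 1 or 2 or irradiated replicate 2 ended the call, and the highest adjusted p was 0.0704. GENCODE lists the antisense gene Gm16015 and the sense intronic gene Gm16014 over Cd38.

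Bst1 (CD157), the other gene of the CD38 family, rose with it. It was at 16.9, 15.7 and 19.5 FPKM in control and at 25.8, 22.9 and 29.1 FPKM in irradiated libraries (log2 change 0.55 ± 0.11, adjusted p = 0.00445). Every irradiated value of Bst1 was above every control value. Bst1 minus Cd38 on the log2(FPKM + 1) scale was 1.33 ± 0.163 in control and 1.43 ± 0.280 in irradiated libraries, with overlapping groups. Art2b, an ADP-ribosyltransferase of the T cell surface that uses the same NAD, fell from 8.42 ± 0.746 to 4.56 ± 0.544 FPKM (log2 change -0.76 ± 0.12, adjusted p = 0.00154). Scaled to the average of 18 T cell core genes, Art2b was at -0.27 (95% interval -0.55 to 0.01) and did not pass (adjusted p = 0.0744). P2rx7, the ATP-gated channel that this enzyme modifies, was at 11.6 ± 0.965 and 9.82 ± 0.946 FPKM and did not pass on the deposited values (adjusted p = 0.206). Scaled to the T cell core genes, P2rx7 was called higher, at 0.31 (adjusted p = 0.0167), as were 76.1% of all tested genes.

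The order of the levels changed with irradiation. In control libraries the order was Ada, Entpd1, Nt5e, Dpp4, Adora2a, Cd38 and Adora2b, and the neighbours Nt5e and Dpp4, and Dpp4 and Adora2a, overlapped. In irradiated libraries it was Ada, Entpd1, Cd38, Adora2b, Nt5e, Adora2a and Dpp4, and the values of Adora2b and Nt5e, of Nt5e and Adora2a, and of Adora2a and Dpp4 overlapped. By mean level, Cd38 moved up past 3 of the other genes, and Dpp4 moved to the last place. Dpp4 and Cd38, which were not neighbours, also overlapped in control libraries. There Dpp4 was at 6.34 FPKM in replicate 1 and Cd38 at 6.42 FPKM in replicate 2.

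T cell transcripts were lower in the same libraries, so the changes were also read relative to them. Each library was scaled by the average of its 18 T cell core genes on the log2(FPKM + 1) scale, which raises the median log2 change of all tested genes from -0.02 to 0.49. A value near 0 on this scale is a change like that of the T cell core. Adora2a was at -0.033 there, with a 95% interval of -0.30 to 0.23, Nt5e at 0.067 (-0.20 to 0.33) and Dpp4 at -0.23 (-0.53 to 0.07), and none of these passed (adjusted p = 0.804, 0.612 and 0.137). Foxp3 was at -0.26 and passed.

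On the same scale Ada was at 1.37 ± 0.09 (SE), Cd38 at 0.96 ± 0.11, Adora2b at 0.68 ± 0.13 and Entpd1 at 0.29 ± 0.10, and these 4 passed as higher (adjusted p = 8.78e-07, 2.96e-05, 0.000584 and 0.0241). The background there was 76.1% of tested genes called higher and 2.56% lower, so a call as higher is the common outcome on this scale. Set against the median of all genes on that scale (0.49), Entpd1, Nt5e, Adora2a and Dpp4 lay below and Adora2b, Cd38 and Ada above.

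**Figure D3:**
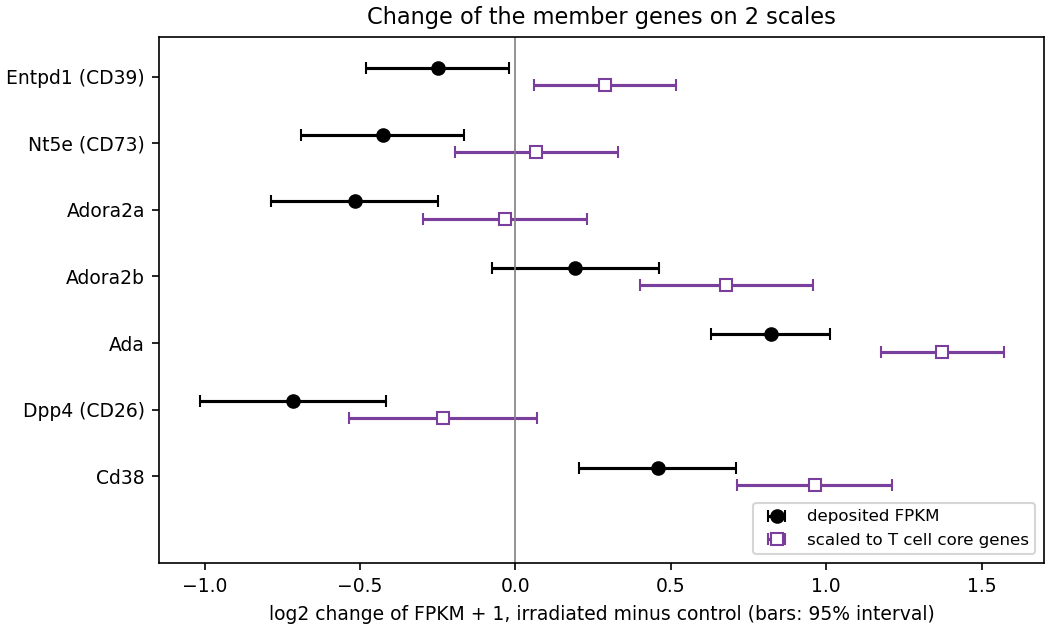
Log2 change (x axis, irradiated minus control, log2 of FPKM + 1) of each gene, with 95% intervals, on the deposited values (black circles) and scaled to 18 T cell core genes (open squares). Ada and Cd38 are above 0 on both scales, Nt5e, Adora2a and Dpp4 are below 0 on the deposited values with intervals that include 0 on the T cell scale, and Entpd1 changes sign.

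Markers of other marrow cells moved in the same libraries. Of 18 tested neutrophil genes 13 rose and 0 fell, and their summed level was 70108 to 75311 FPKM in control and 102259 to 105249 FPKM in irradiated libraries. Of 7 tested plasma cell genes 4 rose and 1 fell, with summed levels of 239 to 253 and 548 to 579 FPKM, and Jchain rose from 128.7 ± 6.91 to 409.96 ± 9.55 FPKM. All 13 tested B cell genes fell, with summed levels of 164 to 173 and 57.6 to 65.3 FPKM, and so did 15 of 16 monocyte and macrophage genes (1091 to 1133 and 511 to 534 FPKM). The macrophage receptor gene Csf1r changed by -0.75 on the log2 scale. None of these 4 lists had a marker at 0 in all 6 libraries, but 2 B cell markers were at 0 in at least 1 library. CD38 is also carried by plasma cells, B cells and myeloid cells, CD39 by macrophages and B cells, and adenosine deaminase and the A2B receptor by many cells. The part of these cells in the values of Ada, Cd38, Entpd1, Adora2b, Nt5e, Adora2a, Dpp4 and Bst1 was not tested.

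The wider pathway was read from 9 lists. Beside the 7 genes these hold 89 other tested genes, of which 12 rose and 17 fell, 32.6% against the 16.6% of all tested genes, with a median log2 change of -0.07 against -0.02. Without control replicate 1 the counts were 6 and 9, without control replicate 2 they were 5 and 9, and without irradiated replicate 2 the count of rises was 7. Up to 4 called genes per list and direction with the largest change were named by rule, which gave 24 of these genes. Slc28a2, Ahcy, Ampd2, P2ry10 and P2rx4 were called too, but were chosen after their values were seen and are not among the 24. Of the 24, 9 passed whichever library was dropped, namely Gda, Aprt, Xdh, Slc29a3, Bst1, Art2b, Slc25a51, Panx1 and Pde2a. Each of the other 15 missed the threshold in at least 1 such fit, 12 without control replicate 1, 11 and 10 without control replicates 2 and 3, and 8, 6 and 4 without irradiated replicates 1, 2 and 3. The counts of the single lists below stand beside the background of all tested genes, 6.29% called higher and 10.3% lower.

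Of 8 tested genes of extracellular nucleotide hydrolysis 1 rose and 1 fell, the latter being Nt5e, with a median of 0.08. Entpd5, a nucleoside diphosphatase of the secretory pathway, rose from 12.9 ± 0.866 to 16.03 ± 0.467 FPKM (log2 change 0.30 ± 0.09, adjusted p = 0.0401). Acpp, which encodes an acid phosphatase that can also release adenosine from AMP, was at 7.50 ± 1.27 and 9.72 ± 0.526 FPKM and did not pass (adjusted p = 0.0854). Of 7 intracellular nucleotidase genes 1 rose and 0 fell, with a median of -0.09. The rise was that of the pyrimidine nucleotidase gene Nt5c3 (0.30 ± 0.09, adjusted p = 0.0418). Entpd5 and Nt5c3 each lost the call in 5 of the 6 fits with 1 library fewer (highest adjusted p 0.132 and 0.133).

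Adenosine removal and purine salvage, a list that also holds Dpp4, had the most calls, 6 rises and 5 falls among 17 tested genes, with a median of -0.02. The rises included enzymes of purine breakdown and salvage. Gda (guanine deaminase) rose from 91.1 ± 3.53 to 128.7 ± 2.64 FPKM (log2 change 0.49 ± 0.05, adjusted p = 6.4e-05). Xdh, which makes uric acid, was at 68.4, 66.4 and 80.3 FPKM in control and at 90.7, 91.9 and 88.6 FPKM in irradiated libraries (0.33 ± 0.07), and the salvage enzyme gene Aprt rose by 0.35 ± 0.07. Ampd2 rose too. So did Slc28a2, another nucleoside transporter gene, from 27.0 ± 3.35 to 33.5 ± 2.62 FPKM (0.31 ± 0.10, adjusted p = 0.0480).

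The falls in that list included both equilibrative nucleoside transporter genes that were tested. Slc29a1, the plasma membrane transporter that takes up adenosine, fell from 12.4 ± 0.939 to 9.18 ± 0.777 FPKM (-0.40 ± 0.10, adjusted p = 0.0245), and Slc29a3, its lysosomal relative, from 16.9 ± 1.11 to 11.9 ± 0.999 FPKM (-0.47 ± 0.10, adjusted p = 0.00666). On the T cell scale these turned to 0.13 and 0.071, without a call. Ahcyl2, a relative of the enzyme that releases adenosine from S-adenosylhomocysteine, changed by -0.54 ± 0.13 and, scaled to the T cell core, by -0.033, which did not pass (adjusted p = 0.820). Ahcy, which encodes that enzyme, changed by -0.31 ± 0.08 (adjusted p = 0.0220) on the deposited values, but on the T cell scale it was called higher, at 0.24 (adjusted p = 0.0172). Adk, the kinase that returns adenosine to AMP, was at 5.65 ± 0.991 and 4.96 ± 0.311 FPKM and did not pass (adjusted p = 0.511), and Pnp, which splits inosine, was at 76.6 ± 1.76 and 70.5 ± 2.51 FPKM (adjusted p = 0.179).

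Of 6 tested genes of the dipeptidyl peptidase family 0 rose and 1 fell, beside 16.6% of all tested genes called, and the median was -0.06. The called gene was Dpp4. Its intracellular relatives Dpp8 and Dpp9 were at 29.6 ± 2.13 and 24.7 ± 1.49 FPKM in control and at 32.04 ± 0.765 and 27.7 ± 3.08 FPKM in irradiated libraries. Neither Dpp8 nor Dpp9 passed (adjusted p = 0.338 and 0.276).

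Around Cd38, 2 of 5 tested genes of NAD-consuming ectoenzymes and their sensor rose, Cd38 and Bst1, and 1 fell, Art2b, with a median of 0.12. The NAD synthesis list also holds genes of NAD transport and conversion. Of its 11 tested genes 0 rose and 3 fell, with a median of -0.07. Nampt, the rate-limiting enzyme of NAD salvage, fell from 23.6 ± 0.880 to 18.3 ± 1.54 FPKM (-0.35 ± 0.08, adjusted p = 0.0144). Slc25a51, the mitochondrial NAD carrier, changed by -0.40 ± 0.08, and Nnt, the mitochondrial transhydrogenase, by -0.37 ± 0.09. On the T cell scale these 3 turned to 0.20, 0.14 and 0.18 without a call.

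Of 15 tested genes of P2 nucleotide receptors and ATP release 1 rose and 6 fell, with a median of -0.31. Panx1, a channel through which cells release ATP, was at 19.5, 15.1 and 14.8 FPKM in control and at 9.75, 7.65 and 7.67 FPKM in irradiated libraries. Every irradiated value of Panx1 was below every control value (log2 change -0.89 ± 0.13, adjusted p = 0.000683). Panx1 also passed as lower on the T cell scale, at -0.37. Calhm6 (-0.76 ± 0.19) and Calhm2 (-0.62 ± 0.16), of the CALHM channel family, and the UDP receptor gene P2ry6 (-0.65 ± 0.18) fell on the deposited values, as did P2ry10 and P2rx4. None of these 5 passed on the T cell scale, where P2rx4 turned to 0.15. With 1 library fewer, Calhm2 missed the threshold in 3 of 6 fits, P2ry6 in 4 and Calhm6 in 2, and without irradiated replicate 1 the change of Calhm2 was -0.40. P2ry1, an ADP receptor gene, rose by 0.47 ± 0.14 (adjusted p = 0.0452), but passed in only 1 of the 6 fits with 1 library fewer (highest adjusted p 0.152). Monocyte and macrophage markers fell in the same libraries, as given above, and which cells gave the Panx1 and P2ry6 transcripts was not tested.

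Below the A2 receptors, 3 of 26 tested genes of the cyclic AMP pathway rose and 3 fell, with a median of -0.04. Over all tested genes 6.29% rose and 10.3% fell. The genes called were mostly phosphodiesterases, which break cyclic nucleotides down. Pde2a rose from 46.1 ± 1.76 to 58.4 ± 1.62 FPKM (0.34 ± 0.06, adjusted p = 0.00274) and Pde8a by 0.41 ± 0.11, while Pde3b fell from 10.98 ± 0.773 to 7.32 ± 1.12 FPKM (-0.53 ± 0.12) and Pde7b, at low levels, by 0.64 on the log2 scale. On the T cell scale Pde3b was at -0.015 and Pde7b at -0.32, and neither passed (adjusted p = 0.912 and 0.108). Prkar2b, a regulatory subunit of protein kinase A, rose by 0.30 ± 0.09 (adjusted p = 0.0471). With 1 library fewer, Prkar2b and Pde8a each lost the call in 5 of the 6 fits (highest adjusted p 0.140 and 0.0894). Creb1, the transcription factor at the end of the pathway, changed by -0.31 ± 0.09 (adjusted p = 0.0285), a call lost in 5 of the 6 fits with 1 library fewer. On the T cell scale Creb1 was called in the opposite direction, at 0.23 (adjusted p = 0.0338). The Gs subunit gene Gnas was at 66.3 ± 2.24 and 58.3 ± 2.71 FPKM and did not pass (adjusted p = 0.0617).

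**Figure D4:**
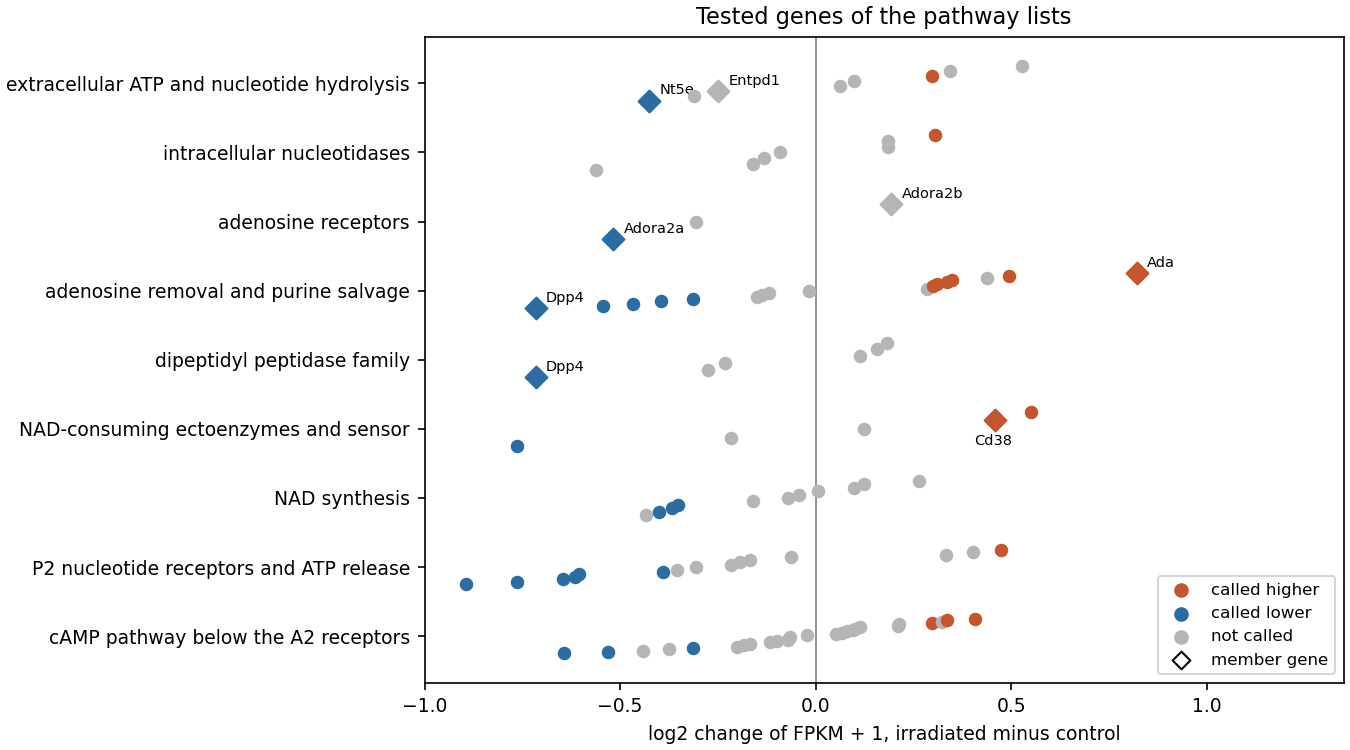
Log2 change (x axis, irradiated minus control, log2 of FPKM + 1) of each tested gene of the 9 pathway lists (y axis), with calls as higher in orange, calls as lower in blue, genes not called in grey, and the 7 genes as labelled diamonds. Adenosine removal and purine salvage has 6 rises and 5 falls with Ada and Dpp4 at its ends, and the P2 receptor and ATP release list has 6 falls and 1 rise.

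Each called gene was set beside the genes whose profile over the 6 libraries was nearest, by the root mean square difference of log2(FPKM + 1) after subtracting each gene's own mean, among 7891 other genes whose mean was 5 FPKM or more. Nearest to Adora2a were Btg2, an antiproliferative gene (0.02), Prcp, a lysosomal peptidase gene (0.04), and the semaphorin receptor gene Plxnb2 (0.05). Nearest to Nt5e were the zinc transporter gene Slc39a1 (0.04), the activating receptor gene Cd226 (0.04) and Abi3 (0.05). Nearest to Dpp4 were Camk1d, a calcium-dependent kinase gene, the chemokine receptor gene Cxcr3 and the receptor gene Gpr171 (0.07, 0.08 and 0.08). Among those nearest to Ada were the metallothionein gene Mt1 and Slpi, a protease inhibitor gene of neutrophils and other cells (each 0.07). Nearest to Cd38 were the autophagy gene Atg12 (0.05), the unnamed model Gm7694 (0.06) and Pirb, an inhibitory receptor gene of myeloid and B cells (0.07). Slpi rose from 143.6 ± 6.79 to 251.5 ± 7.01 FPKM and Cxcr3 fell from 39.7 ± 1.69 to 23.7 ± 1.34 FPKM.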

How the data were processed

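RNA was measured in 6 libraries of sorted mouse bone marrow Tregs, 3 control and 3 irradiated, grouped by the sample titles. The values that the authors deposited, 1 for each gene in a library, were read as FPKM from their ranges and totals, since the headers hold no unit. The submitters' processing notes list fastp, HISAT2 and StringTie and the builds GRCm38 and mm10, without versions. Relative depth was read from genes below 0.1 FPKM, as the most frequent ratio between libraries within 0.001. Between 22 and 47 low genes stood at that ratio, out of 225 to 341 compared per library.

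The fit was made with limma 3.58.1 (R 4.3.3) on log2(FPKM + 1) for the 10666 genes whose mean was 1 FPKM or more. Tests were two-sided, with an intensity trend in eBayes, and p-values were adjusted by Benjamini-Hochberg (threshold 0.05). Changes are irradiated minus control, a scale that understates the change of low genes. On simulated data with 200 changed genes in each of 5 draws from these 10666 genes, 63% of log2 changes of 0.5 and 99% of changes of 1 were recovered, and 7.53% of calls were false. The simulated noise was normal, with the spreads that limma estimated, and fewer genes were changed than the 1771 called here. These rates may therefore differ in the real data. Named genes were the 7 members, up to 4 called genes per pathway list and direction with the largest change, the 3 nearest profiles of each called member, and 7 fixed marker genes, of which Cd3e and Cd4 fell with the T cell core. Of these, 1 marker gene and 1 nearest profile are not reported here. Other genes (Acpp, Adk, Pnp, Ampd2, Slc28a2, Ahcy, Dpp8, Dpp9, P2rx7, P2ry10, P2rx4, Gnas, Adora3) were chosen after their values were seen. The members and lists were chosen with earlier results of these data known. The CD8 and NK cell (0 higher and 5 lower of 10 tested), dendritic cell (0 and 8 of 9), eosinophil, basophil and mast cell (7 and 4 of 13), erythroid (0 and 7 of 12), progenitor (1 and 3 of 7) and stromal (0 and 2 of 6) marker lists were counted too.

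The 7 members, the 24 pathway genes named by rule, and the counts over all genes and over the other pathway genes were recomputed. This was done without the filter, with a minimum mean of 5 FPKM, a pseudocount of 0.1, and median-of-ratios or quantile normalization. It was also done with scaling to the T cell core, a replicate block, and 1 library fewer. Genes chosen after their values were seen were read again only on the T cell scale. The counts per list, pair differences, level order and nearest profiles are given for the deposited values alone. Tables and plots were made in Python 3.11.15 (matplotlib 3.10.9, numpy 2.4.6, pandas 2.3.3).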

Additional observations from a re-analysis of the deposited data

How the results depend on the processing

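Ada and Dpp4 kept direction and call without the filter, with a minimum mean of 5 FPKM or a pseudocount of 0.1, under both other normalizations, the replicate block and whichever library was dropped, and Cd38 and Adora2a in all of these except the left-out libraries given in the report. Without a filter 15483 genes were tested. There Nt5e had an adjusted p of 0.0633 (log2 change -0.43), and 7 other pathway genes were called higher. Entpd5 (adjusted p = 0.0510), Nt5c3 (0.109), P2ry1 (0.125), Calhm6 (0.0830), P2ry6 (0.0999), Calhm2 (0.101) and Prkar2b (0.0770) lost their calls there too, and Pde7b did under quantile normalization (0.0608). Scaled to the T cell core genes, Nt5e was at 0.067 and Entpd1 at 0.29, both reversed, Adora2a at -0.033 and Dpp4 at -0.23 lost their calls, and Adora2b at 0.68 gained one. On that scale Slc29a3 (0.071), Slc29a1 (0.13), Slc25a51 (0.14), Nnt (0.18), Nampt (0.20) and Creb1 (0.23, called higher) reversed too, Art2b, Ahcyl2, Calhm6, Calhm2, P2ry6, Pde3b and Pde7b lost their calls, 8122 genes were called higher and 273 lower, and of the other pathway genes 59 were higher and 1 lower.

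Leaving out each library in turn, the log2 change ran from -0.50 to -0.39 for Nt5e, from -0.36 to -0.19 for Entpd1, from 0.38 to 0.53 for Cd38, from -0.58 to -0.44 for Adora2a, from 0.12 to 0.24 for Adora2b, from -0.79 to -0.63 for Dpp4 and from 0.77 to 0.91 for Ada. The counts over all genes ran from 414 to 684 higher and from 722 to 978 lower (414 and 722 without control replicate 2), and those of the other pathway genes from 5 to 8 higher and from 9 to 16 lower.

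The deviations of same-numbered libraries correlated at 0.01, -0.04 and -0.02 across genes. These values show no shared effect of the replicate numbers, but cannot tell whether the libraries were paired. With the replicate block 558 genes were higher and 948 lower, and Nt5e (-0.43) had an adjusted p of 0.0517. Entpd5 (0.0650), Slc29a1 (0.0521), Pde8a (0.0518), Prkar2b (0.0838) and Pde7b (0.0505) also lost their calls under the block. The irradiated libraries were shallower, and genes near 0 are the least precise.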
